A study of Mus musculus with 8 samples.

Results

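The nuclear genes of the oxidative phosphorylation complexes were followed across 4 groups of mouse lung macrophages. Members were defined by gene symbol, in a set chosen with earlier results of these data known. They were genes whose symbol begins with Nduf, Uqcr, Cox4i, Cox5, Cox6, Cox7, Cox8 or Atp5, with Sdha, Sdhb, Sdhc, Sdhd, Cyc1 and Cycs added, and with 1 probe set of that symbol alone. This gave 90 genes of the 18782 measured, of which 34 belonged to complex I, 4 to complex II, 8 to complex III, 19 to complex IV and 17 to complex V, with cytochrome c (Cycs) and 7 complex I assembly factors of the Ndufaf family beside them. Ndufa4 and Ndufa4l2 were counted with complex IV, where the Ndufa4 protein is found. None of the 13 subunits encoded by mitochondrial DNA had a probe set of its own symbol, and they were not analysed here.

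Oxidative phosphorylation couples the oxidation of NADH and succinate to the synthesis of ATP at the inner mitochondrial membrane. Complexes I and II pass electrons to ubiquinone, complex III passes them on to cytochrome c, and complex IV hands them to oxygen, while complex V, the ATP synthase, uses the proton gradient that complexes I, III and IV build. Most of the subunits come from nuclear genes, and several subunits of complexes IV and V exist in alternative forms from separate genes, some of them enriched in heart and skeletal muscle, in testis or under hypoxia. Alveolar macrophages take up surfactant lipid, and mitochondrial fatty acid oxidation feeds the chain at ubiquinone and complex I.

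The knockout mice carried CD11c-Cre together with PPARg fl/fl alleles (KO) and the controls carried PPARg fl/fl alleles without the recombinase (WT), all on a C57BL/6 background. CD11c-Cre acts in cells that express CD11c, so the allele is expected to be deleted in CD11c-positive cells and not in the whole lung. The 4 groups were KO at day 11 (d11) after birth, WT at d11, KO at day 2 (d2) and WT at d2, with 2 arrays each, and the sorted cells of 2 mice were pooled for each array. At d11 the cells were CD45+, CD11c-high, autofluorescence-high and Siglec-F+, and the gate was high in CD11b for KO cells and low in CD11b for WT cells. The submitters call the d11 KO cells arrested immature precursors and the d11 WT cells mature alveolar macrophages. At d2 the cells were CD45+, F4/80+ and CD11c-high, and were either intermediate for both Siglec-F and CD11b or low in Siglec-F with high CD11b. At d11 the deletion and the gate cannot be told apart, and at d2 the labels do not say how the gates fell on the genotypes. The sample titles call the d2 cells preAM and the d11 cells AM, in both genotypes. Between d2 and d11, age, cell stage and gate cannot be told apart, so age below stands for all of these together. P-values measure the spread between these pools of cells.

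All values are signals on the log2 scale after RMA, which sets the arrays to a common distribution, so a change of all genes together cannot be seen. The median was 5.35 on each array. Pparg itself read 11.32 and 11.36 on the KO d11 arrays, 11.18 and 11.13 on WT d11, 10.55 and 10.74 on KO d2, and 10.89 and 11.01 on WT d2. No source used here says where its probes lie relative to the deleted part, so this checks nothing about the deletion. Fabp4, a PPARγ target, read 5.90 and 6.39 in KO and 9.30 and 9.36 in WT at d11, and 6.05 and 6.34 in KO and 9.11 and 9.10 in WT at d2. One KO d2 array, replicate 1, stood apart by its interferon response genes, whose median over 18 genes was 8.66 there against 5.43 on the other KO d2 array and 4.76 to 5.30 elsewhere. The X-linked transcript Xist was low on KO d11 replicate 1 (3.46) and WT d2 replicate 2 (3.38) and 9.85 to 10.68 on the other 6, so the pools differed in the sex of their mice. The Y-linked Kdm5d and Uty read 4.843 and 4.225 on KO d2 replicate 1, and 5.859 and 5.775 on WT d2 replicate 1. Elsewhere they read 6.893 to 7.739 and 7.294 to 8.153. On KO d2 replicate 1, sex and the interferon response thus cannot be told apart. The 3 X-linked members, Ndufa1, Ndufb11 and Cox7b, were called in no comparison.

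The markers of the sorted cells moved with genotype, but some of them are not independent of the design. Among the monocyte markers, Itgam encodes CD11b, a gate protein. Among the alveolar macrophage markers, Siglecf and Itgax (CD11c) encode gate proteins, and Fabp4 is a PPARγ target. Over all genes, 9.29% were called lower and 9.34% higher in KO at d11, and 11.2% and 8.86% at d2. Of 10 alveolar macrophage markers, 6 were called lower and 1 higher in KO at d11, and 7 lower and 1 higher at d2. Their summed log2 signal was 91.82 and 92.69 in KO against 111.42 and 111.28 in WT at d11, and 82.76 and 85.73 in KO against 103.90 and 104.46 in WT at d2. Of 10 monocyte and interstitial macrophage markers, 7 were called higher at d11 and 9 at d2 and none lower, with sums of 73.38 and 71.75 in KO against 53.05 and 54.03 in WT at d11, and 100.56 and 93.50 in KO against 61.75 and 60.73 in WT at d2. Dendritic cell markers, 10 in all, had 2 called higher at d11 and 7 at d2, with sums of 64.43 and 69.54 in KO against 59.74 and 62.42 in WT at d11 and of 77.16 and 77.83 against 56.60 and 56.75 at d2. Neutrophil markers, 9 in all, had 2 called higher and 1 lower at d11 and 7 higher and 1 lower at d2, with sums of 53.70 and 53.26 in KO against 50.31 and 49.22 in WT at d11 and of 61.45 and 61.39 against 48.27 and 49.15 at d2. Epithelial markers (10) and erythroid markers (4) each had at most 3 called at either age, with epithelial sums of 63.58 to 68.69 and erythroid sums of 19.19 to 20.88 over the 8 arrays. Single arrays ended a few of these calls. The alveolar macrophage marker called higher was lost at d11 without either WT d11 array or KO d11 replicate 2, and at d2 without either WT d2 array or KO d2 replicate 2. The neutrophil marker called lower was lost at d11 without any WT array or KO d11 replicate 2, and at d2 without either KO d2 array or WT d2 replicate 2, and 4 dendritic cell markers were called higher at d11 without KO d11 replicate 1. The part of these cell mixtures in the differences below was not tested, and in RNA of sorted pools fewer cells of a type and less RNA per cell cannot be told apart.

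Wide differences between the groups were rare among the members. The 4 group means of a member spanned at least 1 log2 unit for 2 of 90 members (2.22%), the complex IV genes Cox6a2 and Cox6b2, against 7.62% of all genes, although the median span was 0.30 for members and 0.23 for all genes. The WT d2 arrays were highest in each of the 5 complexes. Relative to each gene's mean over 8 arrays, the 90 members averaged -0.05 and -0.12 on the KO d11 arrays, -0.03 and 0.01 on WT d11, -0.02 and -0.03 on KO d2, and 0.13 and 0.12 on WT d2. All genes averaged -0.01 to 0.00 on the same arrays.

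**Figure D1:**
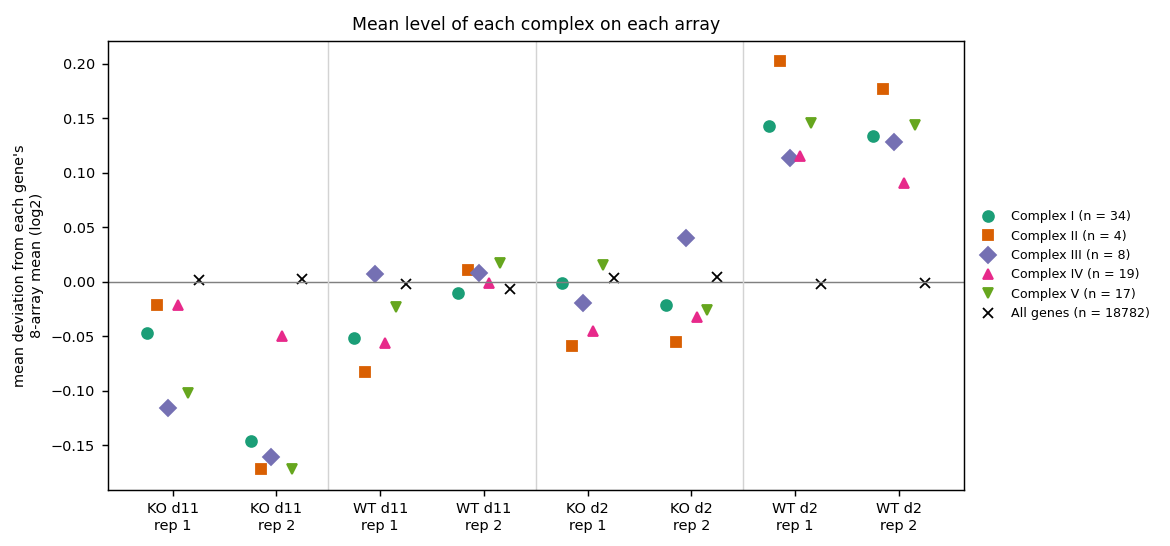
Mean deviation, in log2 units, of the genes of complexes I to V from each gene's mean over 8 arrays, for the 2 arrays each of KO d11, WT d11, KO d2 and WT d2, with the mean over all 18782 genes as crosses. Every complex is highest on the WT d2 arrays, where the 90 members average 0.13 and 0.12, and complexes I, II, III and V are lowest on the second KO d11 array.

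The first comparison asked how KO cells differed from WT cells at d11. Of the 90 members, 3 were called higher (Cox6a2, Atp5e and Ndufaf4), against 9.34% of all genes, and 9 were called lower, against 9.29% of all genes. The 9 were Cycs, Atp5g3, Ndufa4, Atp5pb, Cox7a1, Cox5a, Ndufs4, Cox6b1 and Ndufs1. A gene was called where limma's p-value, adjusted by Benjamini and Hochberg over all 18782 genes, was under 0.05. The members' share in either direction, 13.3%, lay below the 18.6% of all genes, so the members together held no more called genes than the background. By complex the share was 26.3% in IV (5 of 19), 17.6% in V (3 of 17) and 5.88% in I (2 of 34), with none in II or III. The median log2 difference was -0.06 over the members and -0.00 over all genes, and 57 of 90 members lay below 0 (63.3%, against 50.5% of all genes). Both KO arrays were below both WT arrays for 36 members (40%, against 28.7% of all genes) and above them for 16 (17.8%, against 27.7%). At an unadjusted p under 0.05, 22 members were lower (24.4%, against 14.7% of all genes) and 7 higher (7.78%, against 14.3%). Single arrays moved the counts, with 1 called higher without KO d11 replicate 1, KO d11 replicate 2 or WT d11 replicate 1.

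At d2 the same comparison gave differences that lay mostly on 1 side. Of the 90 members, 2 were called higher (Cox6a2 and Ndufaf7), against 8.86% of all genes, and 13 were called lower, against 11.2% of all genes. In either direction 16.7% of members were called and 20.1% of all genes. By complex this share was 31.6% in IV (6 of 19), 25% in II (1 of 4), 17.6% in V (3 of 17) and 8.82% in I (3 of 34), with none in III. The median log2 difference was -0.14 over the members and -0.03 over all genes, 77 of 90 members lay below 0 (85.6%, against 56.9% of all genes), and both KO arrays were below both WT arrays for 61 members (67.8%, against 34.2%) and above them for 4 (4.44%, against 24%). At an unadjusted p under 0.05, 33 members were lower (36.7%, against 18.5% of all genes) and 2 higher (2.22%, against 13%). The count called lower was 3 without WT d2 replicate 1, 4 without WT d2 replicate 2 and 6 without KO d2 replicate 2, and the count called higher was 1 without any array other than WT d2 replicate 2. Without the KO d2 array rich in interferon response genes, 11 were called lower and 74 of 90 differences were below 0. The median stayed between -0.15 and -0.13 whichever array was left out.

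With age, most members had a lower mean in WT cells at d11 than at d2, in a comparison that shares the WT d2 arrays with the d2 genotype comparison. From the d11 arrays minus the d2 arrays of WT, 3 members were called lower (Cox6a2, Atp5k and Ndufa10), against 2.49% of all genes, and none higher, against 2.81%. At an unadjusted p under 0.05, 30 were lower (33.3%, against 11.4% of all genes) and 2 higher (2.22%, against 9.97%). The median was -0.13 over members and -0.01 over all genes, and 81 of 90 members lay below 0 (90%, against 53.4% of all genes). Both d11 arrays were below both d2 arrays for 58 members (64.4%, against 28.7% of all genes) and above them for 3 (3.33%, against 25.3%). None of the 3 calls survived every removal of an array. No member was called lower without WT d2 replicate 1 or WT d2 replicate 2, 1 was without WT d11 replicate 1, and 1 was called higher without either KO d2 array.

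In KO cells, d11 minus d2 gave 4 members called higher (Cox6a2, Cox6b2, Atp5e and Ndufaf4), against 8.81% of all genes. A further 7 were called lower (Atp5pb, Cycs, Atp5mpl, Atp5g3, Cox5a, Atp5k and Atp5o), against 6.71% of all genes, and 5 of these 7 belong to complex V. The median was -0.07 over members and 0.01 over all genes, with 60 of 90 below 0 (66.7%, against 47.5%). The calls of Atp5pb and Cox6a2 were kept under each of the 14 alternative settings. All other calls here were lost with a covariate for sex (Kdm5d signal). All of these but the calls of Cycs and Atp5e were also lost with only the groups compared. The Atp5o call was lost with the mean of probe sets and with the replicate block too. Kdm5d was lowest on KO d2 replicate 1, the array rich in interferon response genes, so this covariate cannot separate sex from that response. For calls that were lost, the gene paragraphs below list array removals only. The count called lower was 1 without KO d2 replicate 1 and 2 without KO d11 replicate 2. The count called higher was 2 without KO d2 replicate 1 or either WT d2 array and 1 without either KO d11 array. Both d11 arrays were below both d2 arrays for 37 members (41.1%, against 24.6% of all genes) and above them for 13 (14.4%, against 29.3%). The test of whether the genotype difference itself changed between d2 and d11 called 1 member higher, Cox6a2 (against 1.29% of all genes), and none lower (against 1.99%), or 1.11% of members in either direction against 3.27% of all genes. At an unadjusted p under 0.05, 9 were higher (10%, against 9.79% of all genes) and 3 lower (3.33%, against 7.2%). Over the members 32 of 90 values lay below 0 (35.6%, against 44.2% of all genes), and without KO d2 replicate 1 the count called higher was 2.

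**Figure D2:**
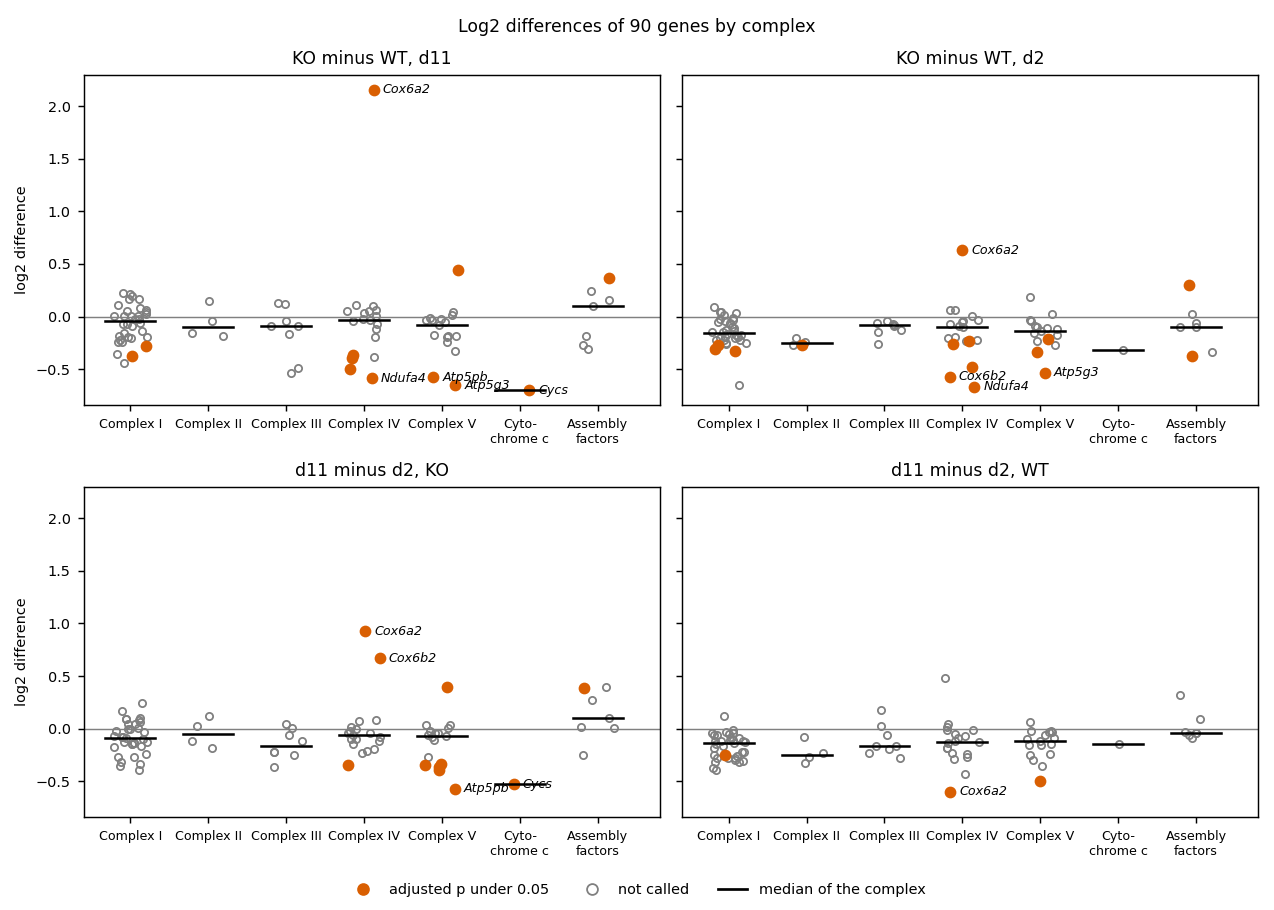
Log2 difference of each of the 90 members, by complex, for KO minus WT at d11 and d2 and for d11 minus d2 in KO and WT. Filled points were called at an adjusted p under 0.05, open points were not, and horizontal bars are medians. Cox6a2 stands far above the rest at d11, and at d2 most points lie below 0.

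Of the 34 members of complex I, the NADH dehydrogenase, 2 fell in KO at d11 (5.88%, against 9.29% of all genes) and 3 at d2 (8.82%, against 11.2%), and none rose. The median difference was -0.05 at d11 and -0.16 at d2. Ndufs1, the largest iron-sulphur subunit of the NADH-oxidising arm, read 8.37 and 8.26 in KO against 8.59 and 8.61 in WT at d11, and 8.41 and 8.41 in KO against 8.76 and 8.72 in WT at d2. Each KO array was below each WT array of its age. The difference was -0.28 ± 0.06 at d11 (SE of the fit, n = 2 arrays per group, as for all errors that follow; limma adjusted p = 0.0177) and -0.33 ± 0.06 at d2 (limma adjusted p = 0.00881). The d11 call was lost without KO d11 replicate 2 (0.107), WT d11 replicate 1 or WT d11 replicate 2, and the d2 call only without WT d2 replicate 1 (0.0605).

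Ndufs4, an accessory subunit of the same arm that is needed for a stable complex I, read 9.75 and 9.93 in KO against 10.26 and 10.16 in WT at d11, and 10.12 and 10.09 in KO against 10.08 and 10.10 in WT at d2. The groups separated at d11 and lay within 0.04 of each other at d2. The d11 difference was -0.37 ± 0.08 (limma adjusted p = 0.013), a call lost without KO d11 replicate 1 or WT d11 replicate 1 (0.0937), and the change of the difference with age was not called (-0.39 ± 0.11, limma adjusted p = 0.127). Ndufa10 and Ndufa5, accessory subunits, fell at d2 by 0.28 (limma adjusted p = 0.0129) and 0.31 (limma adjusted p = 0.0347) on the log2 scale. Both calls were lost without WT d2 replicate 1 or WT d2 replicate 2 (up to 0.0756 for Ndufa10 and 0.184 for Ndufa5), that of Ndufa10 also without KO d2 replicate 1, and that of Ndufa5 without KO d2 replicate 2 or either WT d11 array. The brightest complex I probe set, that of Ndufc2, differed by -0.20 at d11 and -0.19 at d2, and the dimmest, that of Ndufb2, by -0.45 ± 0.19 and -0.65 ± 0.19, with none of these called (limma adjusted p = 0.0516 for Ndufb2 at d2).

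The Ndufaf assembly factors, which help to build complex I and are not part of it, did not move as a group. At d11 Ndufaf4 rose, reading 6.87 and 6.80 in KO against 6.50 and 6.43 in WT. The difference was 0.37 ± 0.10 (limma adjusted p = 0.0359). The call was lost without any array other than the KO d2 arrays (up to 0.162). Ndufaf4 was also called higher in KO cells at d11 than at d2 (0.39 ± 0.10, limma adjusted p = 0.0355), a call lost without any array other than KO d2 replicate 1 (up to 0.143). At d2 Ndufaf7, a methyltransferase that acts on an assembling subunit, rose by 0.30 (limma adjusted p = 0.0421), a call kept only without WT d2 replicate 2 among the 8 removals (up to 0.218), and Ndufaf1 fell by 0.38 on the log2 scale (limma adjusted p = 0.0221). The Ndufaf1 call was lost without WT d2 replicate 1, WT d2 replicate 2 or KO d2 replicate 2 (up to 0.124).

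Complex II, succinate dehydrogenase, links the tricarboxylic acid cycle to the chain. Its 4 subunits were lower in mean signal in KO at d2, by -0.24 for Sdha, the flavoprotein, -0.27 for Sdhb, the iron-sulphur subunit, and -0.27 and -0.21 for the membrane anchors Sdhc and Sdhd. Sdhb alone was called. It read 9.28 and 9.24 in KO d2 against 9.50 and 9.56 in WT d2, so the groups did not overlap. Its adjusted p by limma was 0.0267, and up to 0.146 when any of the 4 d2 arrays was left out. At d11 no complex II gene was called, and the differences were -0.04 for Sdha, -0.19 for Sdhb, -0.16 for Sdhc and 0.15 for Sdhd.

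Complex III, which passes electrons from ubiquinol to cytochrome c, had no called gene in any comparison with the probe set of highest mean for each gene. Its 8 differences ran from -0.54 to 0.13 at d11 and from -0.26 to -0.04 at d2. Cyc1, the cytochrome c1 subunit, read 9.90 and 9.78 in KO against 9.61 and 9.84 in WT at d11, and 9.75 and 9.91 in KO against 9.92 and 9.87 in WT at d2, so the groups overlapped at both ages. The lowest difference at d11 was that of Uqcr11, a small subunit (-0.54 ± 0.16, limma adjusted p = 0.054). The absence of a call there rests on the choice between its 2 probe sets, with means of 8.16 and 8.14. The one not used differed by -0.62 ± 0.14 at d11 (limma adjusted p = 0.0183 over all probe sets) and by -0.52 ± 0.14 for d11 minus d2 in KO (limma adjusted p = 0.0428 over all probe sets). Uqcrb, with the highest mean signal of the complex, differed by -0.09 at d11 and -0.04 at d2, and Uqcrfs1, the Rieske iron-sulphur protein and the dimmest probe set, by 0.13 and -0.08.

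Cytochrome c, the carrier between complexes III and IV, had the largest fall of any member at d11. Cycs read 10.53 and 10.46 in KO d11, 11.32 and 11.07 in WT d11, 11.10 and 10.95 in KO d2, and 11.36 and 11.33 in WT d2. The KO d11 arrays were the lowest of the 8 and overlapped no other group. The d11 difference was -0.70 ± 0.09 (limma adjusted p = 0.00159), which is 1.62-fold lower, and the call held under each of the 14 alternatives. At d2 the difference was -0.32 ± 0.09 and was not called (limma adjusted p = 0.0506), and the change of the difference with age was not called (limma adjusted p = 0.205). In KO cells Cycs was lower at d11 than at d2 by -0.53 ± 0.09 (limma adjusted p = 0.00913), a call lost without KO d11 replicate 2 (0.0573) or KO d2 replicate 1 (0.0504). Cycs has 3 probe sets, which spread more than those of any other member, and the other pair differed by -0.63 and -1.03 at d11 and by -0.38 and -0.59 at d2. Both of the other pair passed the threshold at d2 (limma adjusted p = 0.0178 and 0.0093 over all probe sets), so the missing call at d2 rests on the probe set used. For d11 minus d2 in KO the other pair differed by -0.42 (limma adjusted p = 0.016 over all probe sets) and -0.21 (not called). In WT they differed by -0.16 and 0.22 with age, neither called, so the direction there varied between probe sets. Processed copies of Cycs elsewhere in the genome can share its probes, so its level is less certain than the direction of its genotype differences.

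Complex IV, cytochrome c oxidase, held the largest difference of all members, that of Cox6a2. Cox6a2 encodes the form of subunit VIa that is enriched in heart and skeletal muscle. It read 8.76 and 8.63 in KO d11, 6.66 and 6.41 in WT d11, 7.73 and 7.80 in KO d2, and 7.07 and 7.21 in WT d2. No group overlapped another, and the order was KO d11, KO d2, WT d2 and WT d11 from high to low. The genotype difference was 2.16 ± 0.10 at d11 (limma adjusted p = 1.35e-05), which is 4.46-fold higher, and 0.63 ± 0.10 at d2 (limma adjusted p = 0.00338), which is 1.55-fold higher. The difference itself was larger at d11 by 1.53 ± 0.14 (limma adjusted p = 0.00211, and at most 0.0151 over 13 alternatives). KO cells were higher at d11 than at d2 by 0.93 ± 0.10 (limma adjusted p = 0.00117). WT cells were lower at d11 by -0.60 ± 0.10 (limma adjusted p = 0.0166), a call lost without WT d2 replicate 1, WT d2 replicate 2 or WT d11 replicate 2 (up to 0.116).

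The widely expressed form of the same subunit, Cox6a1, read 9.45 and 9.35 in KO against 9.34 and 9.53 in WT at d11, with a difference of -0.03 ± 0.08, and was not called at d2 either (-0.20 ± 0.08). In RefSeq's gene order of the mouse assembly GRCm38.p6, Cox6a2 follows Itgam, Itgax and Itgad, which encode the integrin chains CD11b, CD11c and CD11d, and its annotated span overlaps that of Itgad. Itgam, a gate marker, was higher in KO by 4.49 ± 0.10 at d11 (limma adjusted p = 8.37e-07) and by 3.05 ± 0.10 at d2 (limma adjusted p = 2.37e-06), and Itgax differed by 0.29 and 0.30. Itgad ran the other way from Cox6a2. It read 4.95 and 5.04 in KO against 6.10 and 5.91 in WT at d11 and 5.31 and 5.60 in KO against 6.09 and 5.82 in WT at d2, a difference of -1.01 ± 0.13 at d11 (limma adjusted p = 0.00111). Armc5, on the other side, differed by -0.01 at d11 and -0.10 at d2, and Tgfb1i1 beyond it by -0.29 and -0.07. The genotype difference of Itgam also changed with age, by 1.44 ± 0.14 (limma adjusted p = 0.00227). That change was -0.01 for Itgax, -0.51 for Itgad, 0.10 for Armc5 and -0.22 for Tgfb1i1, with none of these called. The part of these neighbours in the Cox6a2 signal was not tested.

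Ndufa4, first assigned to complex I and later found in complex IV, fell at both ages. It read 8.04 and 8.11 in KO against 8.59 and 8.73 in WT at d11, and 8.26 and 8.32 in KO against 9.01 and 8.89 in WT at d2. Each KO array was below each WT array of either age. The differences were -0.58 ± 0.08 at d11 (limma adjusted p = 0.00135) and -0.67 ± 0.08 at d2 (limma adjusted p = 0.000666), 1.50-fold and 1.59-fold lower, and both calls held under all 14 alternatives. Its hypoxia-inducible relative Ndufa4l2 was dim, with values between 4.57 and 4.99 on the 8 arrays, and differed by -0.12 and -0.07.

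Cox7a1, the form of subunit VIIa enriched in heart and skeletal muscle, fell as well, which is the opposite of Cox6a2. It read 6.33 and 6.30 in KO against 6.83 and 6.79 in WT at d11, and 6.46 and 6.57 in KO against 7.02 and 6.97 in WT at d2. No KO array reached a WT array. The differences were -0.50 ± 0.07 at d11 (limma adjusted p = 0.00135) and -0.48 ± 0.07 at d2 (limma adjusted p = 0.00154), kept under all 14 alternatives. The widely expressed form Cox7a2 differed by 0.00 at d11 and -0.19 at d2, and Cox7a2l, which takes part in joining complexes III and IV, by 0.06 and 0.01, with none of these called.

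Cox5a, a subunit that binds a thyroid hormone metabolite, fell at d11. It read 8.72 and 8.60 in KO against 9.10 and 9.02 in WT at d11, and 9.02 and 8.99 in KO against 9.21 and 9.27 in WT at d2. The KO d11 arrays were the lowest. The d11 difference was -0.40 ± 0.07 (limma adjusted p = 0.00529), kept under all 14 alternatives. The d2 difference of -0.23 ± 0.07 (limma adjusted p = 0.0498) lost its call without any of the 8 arrays (up to 0.216). In KO cells Cox5a was lower at d11 than at d2 by -0.35 ± 0.07 (limma adjusted p = 0.0131), a call lost without KO d2 replicate 1 (0.063) or KO d11 replicate 2 (0.079). Its partner Cox5b differed by -0.19 at d11 and -0.06 at d2 and was not called.

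The subunit VIb pair fell in part. Cox6b1, the widely expressed form, read 10.00 and 9.94 in KO against 10.30 and 10.37 in WT at d11, and 10.27 and 10.13 in KO against 10.50 and 10.43 in WT at d2. The groups did not overlap at either age. The differences were -0.37 ± 0.07 (limma adjusted p = 0.0101) and -0.27 ± 0.07 (limma adjusted p = 0.0382). The d11 call was lost without KO d11 replicate 2 or WT d11 replicate 2 (up to 0.0697), and the d2 call without any array other than KO d2 replicate 1 (up to 0.178).

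Cox6b2, the testis form, read 8.26 and 8.35 in KO d11, 8.62 and 8.74 in WT d11, 7.37 and 7.89 in KO d2, and 8.12 and 8.29 in WT d2. The KO d2 arrays were the lowest and the farthest apart of any pair of this gene. KO cells were lower than WT cells at d2 by -0.57 ± 0.15 (limma adjusted p = 0.0361) and higher at d11 than at d2 by 0.67 ± 0.15 (limma adjusted p = 0.0243). Without KO d2 replicate 1, whose interferon response genes were high, these differences were -0.31 and 0.41 and neither was called. The d2 call was also lost without any array other than KO d2 replicate 2 (up to 0.192), and the age call without KO d11 replicate 1 or KO d11 replicate 2 (up to 0.117). At d11 the difference of -0.38 ± 0.15 was not called.

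The remaining alternative forms of complex IV were not called. Cox4i1, the widely expressed subunit IV, differed by 0.04 at d11 and -0.23 at d2 (limma adjusted p = 0.0718), and by -0.27 with age in WT (limma adjusted p = 0.0911). Its lung and hypoxia form Cox4i2 differed by 0.10 at d11 and -0.22 at d2, and by -0.43 with age in WT (limma adjusted p = 0.0505). Cox7b and the testis form Cox7b2 differed by -0.07 and -0.02 at d11 and by -0.10 and 0.06 at d2. For subunit VIII, Cox8a differed by 0.10 and -0.03, the muscle form Cox8b by 0.05 and -0.09 and the testis form Cox8c by 0.05 and 0.06. None of these 7 genes passed the threshold in any comparison. Cox7b2 (3.25 to 3.35) and Cox8b (4.50 to 4.67) were dim on every array, and Cox6c, the brightest of the complex, differed by -0.04 at both ages.

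**Figure D3:**
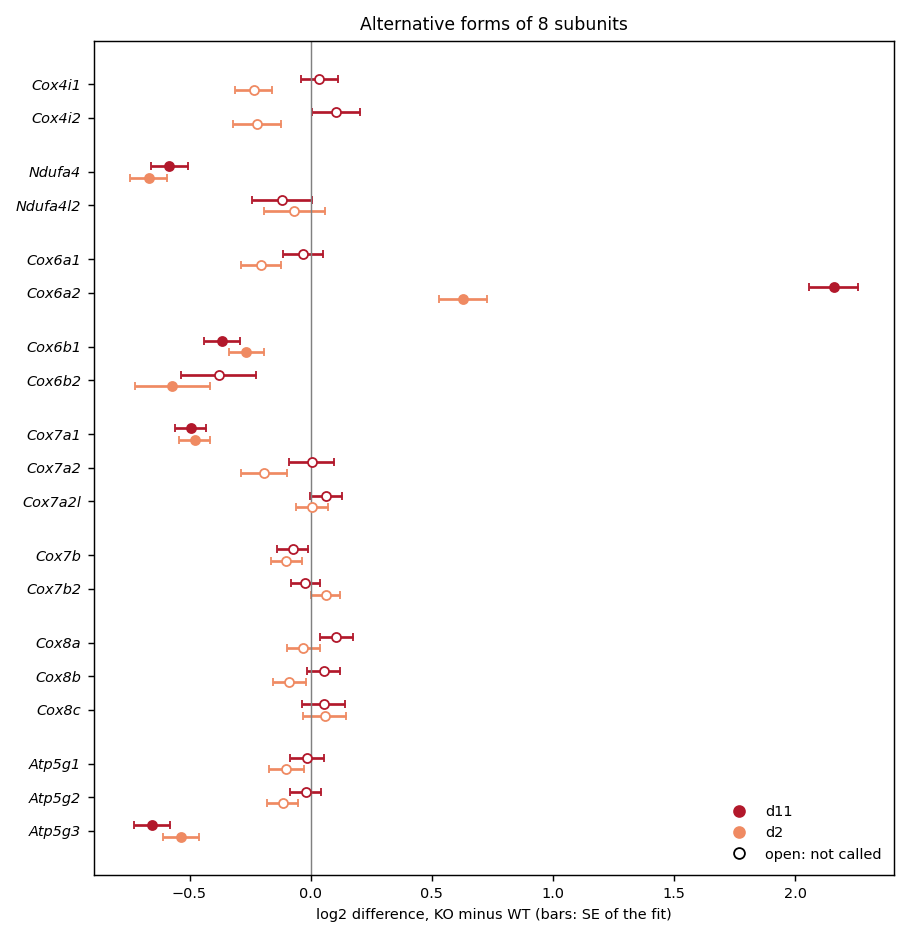
Log2 difference, KO minus WT, of the alternative forms of 8 subunits of complexes IV and V at d11 (upper point of each gene) and d2 (lower point), with the SE of the fit as bars. Filled points were called. Cox6a2 is far to the right at d11 (2.16), and Ndufa4, Cox7a1 and Atp5g3 are left of 0 at both ages while Cox7a2, Atp5g1 and Atp5g2 lie within 0.2 of it.

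In complex V, the ATP synthase, 1 of the 3 genes for subunit c of the rotor ring fell. The 3 genes encode the same mature protein behind different import sequences. Atp5g3 read 9.88 and 9.81 in KO d11, 10.49 and 10.51 in WT d11, 10.29 and 10.14 in KO d2, and 10.79 and 10.71 in WT d2. KO lay below WT at each age without overlap. The differences were -0.65 ± 0.07 at d11 (limma adjusted p = 0.000594) and -0.54 ± 0.07 at d2 (limma adjusted p = 0.00158), 1.57-fold and 1.45-fold lower, and both calls held under all 14 alternatives. Atp5g1 differed by -0.01 at d11 and -0.10 at d2 and Atp5g2 by -0.02 and -0.12, with SEs of 0.06 to 0.07 and no call. Whether the changes of the 3 genes differ from each other was not tested. In KO cells Atp5g3 was lower at d11 than at d2 by -0.37 ± 0.07 (limma adjusted p = 0.0136), a call lost without KO d2 replicate 1 (0.0725) or KO d11 replicate 2 (0.0795).

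Atp5pb, a subunit of the peripheral stalk, read 9.76 and 9.53 in KO d11, 10.31 and 10.13 in WT d11, 10.25 and 10.18 in KO d2, and 10.25 and 10.36 in WT d2. The KO d11 pair stood below the other 6 arrays, and the d2 groups met at 10.25. The difference was -0.58 ± 0.10 at d11 (limma adjusted p = 0.00522) and -0.09 ± 0.10 at d2 (not called). In KO cells Atp5pb was lower at d11 than at d2 by -0.57 ± 0.10 (limma adjusted p = 0.00808), and this call and the d11 call held under all 14 alternatives. The change of the genotype difference with age was not called (-0.49 ± 0.14, limma adjusted p = 0.132).

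Atp5e, the epsilon subunit of the central stalk, rose at d11. It read 8.65 and 8.69 in KO d11, 8.07 and 8.38 in WT d11, 8.21 and 8.34 in KO d2, and 8.27 and 8.24 in WT d2, so the KO d11 pair was the highest. The difference was 0.45 ± 0.10 at d11 (limma adjusted p = 0.0192, lost without KO d11 replicate 1, KO d11 replicate 2 or WT d11 replicate 1, up to 0.0908). In KO cells Atp5e was higher at d11 than at d2 by 0.39 ± 0.10 (limma adjusted p = 0.0389). That call was lost without either KO d11 array, KO d2 replicate 1 or either WT d2 array (up to 0.173).

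Atp5k, a small membrane subunit linked to the dimer of the synthase and the dimmest probe set of the complex, read 7.13 and 7.16 in KO d11, 7.35 and 7.30 in WT d11, 7.59 and 7.39 in KO d2, and 7.76 and 7.88 in WT d2. It was lower at d11 than at d2 in WT (-0.49 ± 0.08, limma adjusted p = 0.0157) and in KO (-0.35 ± 0.08, limma adjusted p = 0.0271), and lower in KO than in WT at d2 (-0.33 ± 0.08, limma adjusted p = 0.0246). The WT age call was lost without any of the 4 WT arrays (up to 0.109), the KO age call without KO d2 replicate 1 or either KO d11 array (up to 0.131), and the d2 call without either WT d2 array or KO d2 replicate 2 (up to 0.15). Atp5o, the oligomycin sensitivity subunit, and Atp5mpl, a small membrane subunit, were lower at d11 than at d2 in KO cells, by -0.34 and -0.40 on the log2 scale (limma adjusted p = 0.0395 and 0.039). Each call was lost without 6 of the 8 arrays, which were all but the WT d11 pair for Atp5o (up to 0.195) and all but KO d2 replicate 2 and KO d11 replicate 1 for Atp5mpl (up to 0.197). The other probe set of Atp5o, with a mean of 7.28, differed by -0.25 ± 0.10 in the same comparison and was not called (limma adjusted p = 0.167 over all probe sets). Atp5b, the catalytic beta subunit and the brightest of the complex, differed by -0.04 at d11 and -0.03 at d2.

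**Figure D4:**
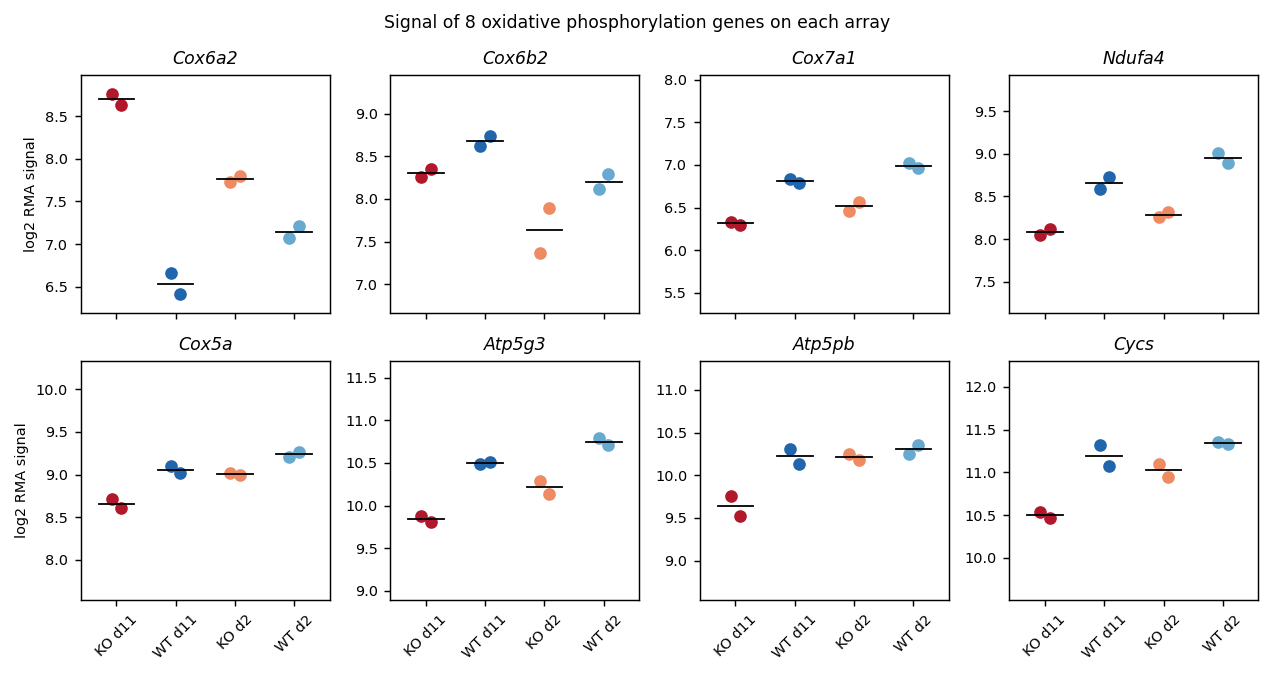
Log2 RMA signal on each array of 8 members, as points for the 2 arrays of KO d11, WT d11, KO d2 and WT d2 with group means as bars. The y axes cover different ranges of equal span, and levels of different genes are not to be compared. Cox6a2 is highest in KO d11 (8.76 and 8.63), and the other 7 genes are lower in KO than in WT at d11.

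The promoters of 4 of the genes that fell are shown, because they differ in the sites known to drive respiratory genes. The 250 bases before the start site come from RefSeq (GRCm38.p6), which gave a promoter for 74 of the 90 members. Capitals mark the NRF1 core GCATGCG, the CCAAT box or the estrogen-related receptor (ERR) site AAGGTCA, on either strand. The Atp5g3 window is chr2:73911327-73911576 on the minus strand, Cycs is chr6:50566570-50566819 on the minus strand, Cox7a1 is chr7:30183921-30184170 on the plus strand and Ndufa4 is chr6:11907451-11907700 on the minus strand.
Atp5g3: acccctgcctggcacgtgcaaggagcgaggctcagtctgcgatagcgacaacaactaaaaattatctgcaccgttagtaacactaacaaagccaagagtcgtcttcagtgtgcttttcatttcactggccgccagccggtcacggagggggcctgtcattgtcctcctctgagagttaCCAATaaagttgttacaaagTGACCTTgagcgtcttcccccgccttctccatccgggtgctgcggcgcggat
Cycs: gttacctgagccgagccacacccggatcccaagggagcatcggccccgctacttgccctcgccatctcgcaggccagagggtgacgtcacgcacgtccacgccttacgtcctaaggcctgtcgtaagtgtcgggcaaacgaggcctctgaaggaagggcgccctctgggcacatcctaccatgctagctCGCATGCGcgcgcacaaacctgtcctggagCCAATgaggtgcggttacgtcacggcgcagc
Cox7a1: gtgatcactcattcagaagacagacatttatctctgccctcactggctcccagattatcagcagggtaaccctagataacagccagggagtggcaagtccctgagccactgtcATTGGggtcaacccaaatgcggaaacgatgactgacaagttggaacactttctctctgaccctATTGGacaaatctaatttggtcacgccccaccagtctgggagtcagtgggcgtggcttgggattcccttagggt
Ndufa4: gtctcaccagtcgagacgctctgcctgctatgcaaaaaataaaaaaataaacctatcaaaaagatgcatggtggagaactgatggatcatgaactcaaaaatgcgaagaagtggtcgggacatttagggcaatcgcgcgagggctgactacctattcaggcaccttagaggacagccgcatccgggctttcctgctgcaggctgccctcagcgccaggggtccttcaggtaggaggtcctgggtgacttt
Atp5g3 holds a CCAAT box whose first base is at -72 and an ERR site, on the other strand, at -52. Cycs holds overlapping NRF1 cores on the 2 strands, at -61 and -60, and a CCAAT box at -31. Cox7a1 holds 2 CCAAT boxes on the other strand, at -137 and -74, and Ndufa4 none of these 3 motifs in the 250 bases.

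Each motif was then counted on both strands in the 300 bases from 250 before to 50 after the start site. The NRF1 core was in 14 of the 74 members (18.9%) and in 4.01% of 27025 genes. The ETS site CCGGAAG, bound by GABP, was in 18 members (24.3%) and in 9.93% of genes, and the ERR site was in 8 members (10.8%) and in 5.38%. The YY1 site AAGATGG was in 13.5% of members and 7.28% of genes, the CCAAT box in 44.6% and 41.1%, and the GC box GGGCGG of SP1 in 45.9% and 38.2%. The AGGTCA hexamer, which every ERR site contains, was in 23.0% and 18.1%. As a direct repeat with 1 base between, the arrangement bound by PPARγ with RXR, it was in none of the 74 members and in 0.0481% of genes. Only exact copies were sought. With the exact repeat so rare among all genes, its absence from 74 cannot show whether PPARγ binds near the members. These shares describe letters in a fixed window and carry no test.

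Genes around the complexes were read from lists. Over all genes, 9.29% fell and 9.34% rose in KO at d11, and 11.2% fell and 8.86% rose at d2. Of 16 genes for ubiquinone synthesis and electron entry, 3 fell and 2 rose in KO at d11 (median -0.11), and 6 fell and 1 rose at d2 (median -0.25). The falls numbered 2 to 3 at d11 and 4 to 7 at d2 with any array left out. The d11 rises were 0 without WT d11 replicate 1 or KO d11 replicate 2 and 1 without KO d11 replicate 1, and the d2 rise was lost without WT d2 replicate 2 or KO d2 replicate 1. At d11 the falls were Etfdh, Etfa and Etfb, on the route by which fatty acid oxidation reaches ubiquinone. The d11 rises were Coq4 and Coq2, of ubiquinone synthesis (0.42 and 0.32, limma adjusted p = 0.0128 and 0.0314). At d2 genes of ubiquinone synthesis were among the falls as well, and the rise was that of Coq10b (0.43, limma adjusted p = 0.0148). Etfdh, which passes electrons from the electron transfer flavoprotein to ubiquinone, read 8.32 and 8.31 in KO against 9.05 and 9.04 in WT at d11, and 8.55 and 8.59 in KO against 9.13 and 9.11 in WT at d2. The genotypes did not overlap, and the differences were -0.72 ± 0.06 (limma adjusted p = 0.000114) and -0.55 ± 0.06 (limma adjusted p = 0.000412). Etfa, a chain of the flavoprotein, fell at both ages (-0.45 and -0.52, limma adjusted p = 0.00142 and 0.000679), and Coq5, a methyltransferase of ubiquinone synthesis, fell at d2 (-0.54, limma adjusted p = 0.00499), calls that held without any 1 array. Etfb, the other chain, fell at both ages (-0.47 and -0.48, limma adjusted p = 0.0107 and 0.00972). Its d11 call was lost without WT d11 replicate 2 or KO d11 replicate 2 (up to 0.0718), and its d2 call without either WT d2 array (up to 0.0589).

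Of 13 tricarboxylic acid cycle genes, 3 fell at d11 (23.1%, median -0.06) and 4 at d2 (30.8%, median -0.20), and none rose. The d2 count was 1 without WT d2 replicate 2 and 2 without any other d2 array. Suclg2, the GTP-linked subunit of succinyl-CoA synthetase, read 8.40 and 8.60 in KO against 9.18 and 9.08 in WT at d11. The KO pair was lower at d2 as well, and the differences were -0.63 ± 0.09 at d11 (limma adjusted p = 0.0017) and -0.55 ± 0.09 at d2 (limma adjusted p = 0.00304), both kept without any 1 array. Idh3g, a subunit of NAD-linked isocitrate dehydrogenase, fell at d11 (-0.43 ± 0.07, limma adjusted p = 0.00529) and at d2 (-0.33 ± 0.07, limma adjusted p = 0.017), with the d2 call lost without either KO d2 array or WT d2 replicate 2 (up to 0.113).

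Among 10 carriers of nucleotides, phosphate and protons, 2 fell (20%) and 1 rose (10%) at d11 and none was called at d2. Ucp3, an inner membrane protein of the uncoupling protein family, read 5.68 and 5.97 in KO d11, 8.06 and 7.50 in WT d11, 4.87 and 5.02 in KO d2, and 4.99 and 5.09 in WT d2. The WT d11 pair stood above the other 6 arrays. The d11 difference was -1.95 ± 0.18 (limma adjusted p = 0.000211, and at most 0.00186 without any 1 array). The other fall at d11 was that of Ucp1 (-0.58, limma adjusted p = 0.00783), lost without WT d11 replicate 1. The rise was that of Slc25a4 (0.34, limma adjusted p = 0.0149), lost without WT d11 replicate 2 or KO d11 replicate 2.

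Of 18 regulators of mitochondrial biogenesis, 2 rose (11.1%) and 1 fell (5.56%) at d11, and 1 rose (5.56%) and 2 fell (11.1%) at d2, all small counts. The d11 rises were 1 without WT d11 replicate 2 or either KO d11 array, and the d11 fall was lost without WT d11 replicate 2. The d2 rise was lost without WT d2 replicate 2, and the d2 falls were 1 without either WT d2 array or KO d2 replicate 1. Polg, the mitochondrial DNA polymerase, rose at both ages (0.46 and 0.40, limma adjusted p = 0.00416 and 0.00798), with the d2 call lost without WT d2 replicate 2 (0.0634). Lonp1, a matrix protease, fell at both (-0.29 and -0.33, limma adjusted p = 0.00985 and 0.00521), with the d11 call lost without WT d11 replicate 2 or KO d11 replicate 1 (up to 0.0632). Myc rose at d11 (0.37, limma adjusted p = 0.0346) and Ppargc1b fell at d2 (-0.38, limma adjusted p = 0.0117), each lost without at least 1 array. Of 39 assembly factors outside the Ndufaf family, 5 rose (12.8%) and 3 fell (7.69%) at d11, and 1 rose (2.56%) and 7 fell (17.9%) at d2. The 5 rises were 1 to 3 with any array left out, and the 3 falls were 1 without KO d11 replicate 2. The 7 falls at d2 were 1 without WT d2 replicate 1 and 3 without WT d2 replicate 2 or KO d2 replicate 1, and the rise was lost without WT d2 replicate 1. Bcs1l, which inserts the Rieske protein into complex III, fell at d11 (-0.39 ± 0.07, limma adjusted p = 0.00579), and Cox19, a complex IV factor, fell at d2 (-0.51 ± 0.08, limma adjusted p = 0.00268), both kept without any 1 array. The largest d11 rises were those of Ttc19, Sdhaf1 and Cox16 (0.34, 0.32 and 0.29, limma adjusted p = 0.0345, 0.0195 and 0.0426). The d2 rise was that of Ttc19 (0.47, limma adjusted p = 0.00783). Each of these rises lost its call without at least 1 array.

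Other mitochondrial lists also had medians below 0 at d2, as did the proteasome outside the mitochondrion. Of 74 mitochondrial ribosome genes, 11 fell (14.9%) and 2 rose in KO at d11 (median -0.10), and 27 fell (36.5%) and 1 rose at d2 (median -0.23). The d2 falls were 11 without either WT d2 array and 15 without KO d2 replicate 2, and the d11 falls were 1 without WT d11 replicate 1 or KO d11 replicate 2 and 7 without WT d11 replicate 2. The d11 rises were 1 without WT d11 replicate 1 or either KO d11 array. Mrpl52 ran against the others, reading 10.06 and 9.62 in KO against 8.58 and 8.83 in WT at d11, and its rise was called at both ages without any 1 array. Of 24 import genes, 3 fell at d11 (12.5%, median -0.05) and 9 at d2 (37.5%, median -0.21), with none rising. The d2 falls were 2 without either WT d2 array and 4 without KO d2 replicate 2, and the d11 falls were 0 without either WT d11 array and 1 without any other array but KO d11 replicate 1.

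Lists outside the mitochondrion were read in the same way. Of 71 cytosolic ribosome genes none fell at either age (medians 0.09 at d11 and 0.06 at d2), and 10 rose at d11, a count of 0 without WT d11 replicate 1 or KO d11 replicate 1, 2 without KO d11 replicate 2, and 3 without WT d11 replicate 2 or either WT d2 array. Of 38 proteasome genes, 2 fell at d11 and 1 at d2, and none rose. Their differences lay on 1 side as those of the members did. At d11 the median was -0.11, with 26 of 38 below 0 (68.4%, against 50.5% of all genes). At d2 the median was -0.12, with 33 of 38 below 0 (86.8%, against 56.9% of all genes). With 1 array left out, the d2 median ran from -0.24 to -0.05. The d11 count was 0 without any WT array or KO d11 replicate 2, 4 without KO d11 replicate 1 and 7 without either KO d2 array, and the d2 count was 0 without WT d2 replicate 1 and 4 without KO d2 replicate 1. All 20 cell cycle genes fell at d11 (median -1.17) and 19 at d2 (median -0.77), and 19 to 20 and 15 to 19 did so without 1 array. The cell cycle genes were thus lower in KO at both ages, and their part in the differences of the complexes was not tested.

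**Figure D5:**
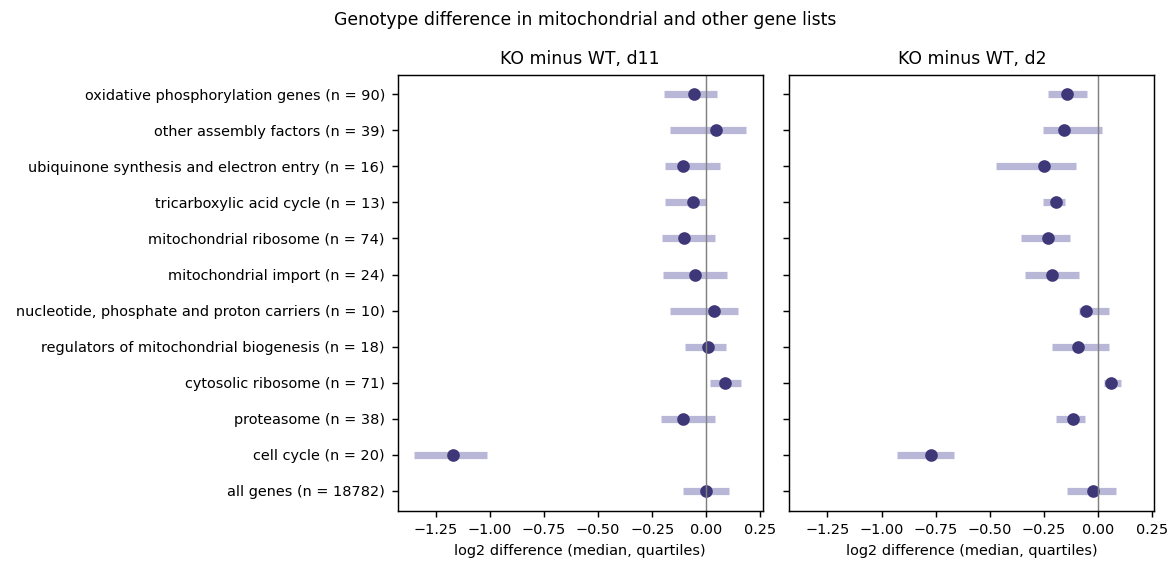
Median log2 difference, KO minus WT, of the 90 members, of 10 other gene lists and of all 18782 genes at d11 (left) and d2 (right), with bars from the lower to the upper quartile of genes. At d2 the members (-0.14), the other mitochondrial lists and the proteasome (-0.12) lie below 0, the cytosolic ribosome lies above 0 (0.06), and the cell cycle list lies farthest below 0 (-0.77).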

How the data were processed

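Signals came from 8 Affymetrix arrays of sorted mouse lung macrophages, 2 per group. The deposited values are log2 signals. The authors made them by RMA, and the submitters' processing notes name R 2.15.2. The genome build and the level at which probes were combined are not given in the sources used here. Of 28874 probe sets, 21159 had 1 gene symbol in the platform annotation, 1881 had several and 5834 had none. The first kind was used, with the probe set of highest mean where a gene had several (1368 genes), leaving 18782 genes. Of the members, 66 had 1 probe set and 24 had several, whose genotype differences spread by a median of 0.06 at d2 and 0.04 at d11. A further 4 symbols with these stems, found only on probe sets shared between genes, were left out. Close copies of these genes elsewhere in the genome can share probes.

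One mean per group was fitted to all 8 arrays (limma 3.58.1, R 4.3.3), with a prior SD of 0.081 on 3.77 degrees of freedom beside 4 residual ones, without a replicate block, and p-values were adjusted over 18782 genes. The fit was checked on simulated data, where small changes were mostly missed, so a gene not called may still differ. The members and lists were chosen with earlier results of these data known, so they are no independent evidence. Named members are, for each comparison, the 12 largest rises and falls among called members without overlap between groups, all alternative forms of a subunit, the brightest and dimmest gene of each complex, and all Sdh genes, Cyc1 and Cycs. From a list, genes were named only from its called genes, up to 3 each way by size. Not all of those were named. The alternatives, up to 14 a result, were a trended robust prior, only the groups compared, the mean of probe sets, genes with a mean of at least 6, the replicate block, a Kdm5d covariate and each array left out. The labels do not say whether replicate numbers pair the samples. Deviations of same-numbered arrays correlated between -0.08 and 0.25 over 6 pairs of groups, which with 2 arrays per group cannot decide it. Plots were made in Python 3.11.15 with matplotlib 3.10.9. The 2 arrays per group limit the precision.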

Additional observations from a re-analysis of the deposited data

Results flagged for a closer look

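Cox6a2 was singled out because its genotype difference changed with age by the test of that change itself. KO exceeded WT by 2.16 at d11 and by 0.63 at d2 on the log2 scale, and the change was 1.53 ± 0.14 (limma adjusted p = 0.00211). Both KO arrays were above both WT arrays at each age. Such a change was not particular to Cox6a2 among its neighbours. Itgam, the CD11b gene, changed by 1.44 ± 0.14 (limma adjusted p = 0.00227), while those of Itgax and Itgad were not called. The cause was not tested. The gate of the d11 cells was high in CD11b for KO and low for WT, so the deletion and the gate cannot be told apart there. With 2 arrays per group, no group was large enough to look for an outlying array in this way.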

How the results depend on the processing

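No called difference of a member and no median over the members changed sign under the alternatives run. With 1 array left out, the d11 medians of some lists did, running from -0.02 to 0.03 for regulators of biogenesis, from -0.01 to 0.06 for carriers, from -0.01 to 0.32 for dendritic cell markers and from -0.13 to 0.04 for neutrophil markers, as did the d2 median of epithelial markers (-0.15 to 0.18). The calls of Atp5g3, Cox6a2, Cox7a1 and Ndufa4 in KO against WT held under all of them at both ages, as did those of Atp5pb, Cox5a and Cycs at d11. Counts of members called were less stable. With a trended robust prior, 1 was called higher at d2, 14 lower at d11 and 5 lower with age in WT. With only the groups compared, 1 was called higher and 7 lower at d2, 1 higher and 7 lower with age in WT, and 2 higher and 2 lower with age in KO, and the change of the genotype difference with age was not run. Among genes with a mean of at least 6, 1 was called higher at d2, 14 lower at d11 and 6 lower with age in WT. With Kdm5d as a covariate for sex, chosen after seeing the data in place of Ddx3y, which had no probe set of its own and was not run, 1 was called higher at d2, and 1 higher and 1 lower with age in KO. With the replicate block, 1 was called higher and 14 lower at d2, and 3 higher and 10 lower at d11, and counts in the other comparisons stayed within 1.5 times. The causes were not tested. With 1 array left out, the counts called higher and lower were 1 to 2 and 3 to 11 at d2, 1 to 4 and 7 to 13 at d11, 0 to 1 and 0 to 3 with age in WT, 1 to 4 and 1 to 9 with age in KO, and 1 to 2 and 0 for the change of the difference. Members below 0, a count added after seeing the data, were then 74 to 79 at d2, 51 to 64 at d11, 76 to 81 with age in WT, 52 to 66 with age in KO and 24 to 36 for the change of the difference. Medians ran from -0.15 to -0.13 at d2, from -0.09 to -0.02 at d11, from -0.16 to -0.10 with age in WT, from -0.11 to -0.05 with age in KO and from 0.04 to 0.12 for the change. Dim probe sets, such as those of Cox7b2 and Cox8b, limit what a flat signal can show.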
